A study of Mus musculus with 16 samples.

Results

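The 10 genes described here encode MYC-family proteins, their partner MAX and the repressors that compete for MAX: Myc, Mycn, Mycl, Max, Mxd1, Mxd3, Mxd4, Mxi1, Mga and Mnt. They were chosen by name, as the rows of the deposited count table whose Ensembl ID carries one of these symbols, a rule that uses no measured value. All 10 had a row among the 52636 gene IDs of the table, and all 10 passed the filter on low counts that left 12742 genes for testing.

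RNA was sequenced from 16 libraries of CRAFR26, a mouse line with a c-RAF kinase construct that 4-hydroxytamoxifen (4OHT) switches on and that activates the kinase ERK through MEK. The cells were in the state the labels call RSC, reached by differentiating targeted embryonic stem cells, and came from 2 clones of the line, clone 4 and clone 8. All 4 groups shared N2B27 medium with 2 µM IWP2 and 1000 U/ml of the cytokine LIF, and in all of them the routine 1 µM of the MEK inhibitor PD03 (PD0325901) had given way for 48 h to 250 nM of the FGF receptor inhibitor PD17 (PD173074). Group 0h was taken before 4OHT. Group 2h had 2 h of 250 nM 4OHT, group 4h had 4 h of it, and group rev was taken after 4 h of 4OHT followed by 2 h with a MEK inhibitor whose dose at that step the labels do not give. Each group held 4 libraries, 2 from each clone. The labels do not say whether the 2 libraries of a clone came from separate cultures, so p-values measure the spread between these libraries, which may be technical. No group with 6 h of 4OHT and without the MEK inhibitor is analysed here; rev therefore differs from 4h by 2 h of further culture as well as by the inhibitor.

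MYC, MYCN and MYCL are transcription factors that bind DNA as a pair with MAX, at sites called E-boxes, and recruit coactivators to genes for ribosome production, metabolism and cell growth. The MXD proteins (MXI1 is one of them), MNT and MGA also pair with MAX at E-boxes but bring corepressors, so that the balance between the 2 kinds of partner sets the output of the network. In pluripotent mouse cells MYC proteins are known for sustaining growth and self-renewal, MGA and MAX belong to the repressive complex PRC1.6 that keeps germline genes silent, and Myc is a textbook early target of growth factor signalling through ERK.

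The libraries' column totals ran from 4313599 to 10444126 counts, of which 46.7% to 78.9% fell on 8 features that each took over 1% of the counts, leaving 1301790 to 5457796 for other genes. The rev library number 1 of clone 8 was at the low end of the last range, and every member called in a comparison with rev, over both clones or between them, was also called without it. A floor of 3 counts corresponded to 0.210 to 0.908 CPM, the unit of level used here, which divides counts by the library's size after scaling by TMM, a factor per library that evens out composition. The 12 pluripotency markers all passed the filter and summed to 1220 to 2069 CPM, against 3.02 to 8.05 CPM for primitive endoderm, 1.97 to 8.64 for mesoderm, 28.9 to 78.9 for trophectoderm, 4.99 to 23.2 for neural and 0.613 to 3.47 for feeder fibroblast markers. The highest neural sums lay at 4h (7.34 to 23.2 CPM), and their part in the results below was not tested. In bulk RNA, fewer cells of a type and less RNA per cell cannot be told apart. As a check of the induction, all 7 ERK readout genes rose at 2h and at 4h. Dusp6, a phosphatase that acts on ERK, gained 3.35 (SE 0.36) on the log2 scale at 2h and fell by 5.03 (SE 0.41) from 4h to rev, and Spry2, a feedback inhibitor of the pathway, gained 1.45 (SE 0.15) at 2h and fell by 1.79 (SE 0.16) in rev.

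E-boxes are shown first, since the network's proteins bind this motif and can act on the network's own genes. RefSeq promoter windows on GRCm38.p6, from 250 bases before to 50 after each annotated start, were matched for 9 of the 10 genes (11 windows). Myc had no window, so its promoter was not searched for any of the motifs below. The palindrome CACGTG, searched on both strands, lay in 3 of the 11 windows, those of Mxd4, Mnt and Max, and in 7.15% of all 32851 promoter windows. The lines below give 30 bases around each E-box, 5′ to 3′ on the gene's strand, with the E-box in capitals. Counted from the annotated start, the E-box began at position -219 in Mxd4 (chr5:34187912-34187941, minus strand), at -123 in Mnt (chr11:74830789-74830818, plus strand) and at -3 in Max, where it spans the start (chr12:76962234-76962263, minus strand).
Mxd4: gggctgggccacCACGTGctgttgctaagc
Mnt: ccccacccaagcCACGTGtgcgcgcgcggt
Max: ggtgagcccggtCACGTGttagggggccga
The core CCGGAA of ETS factors, a family that ERK phosphorylates, lay in none of the 11 windows on either strand, against 14.9% of all windows. The AP-1 motif TGANTCA lay in none either, against 7.81% of all. In the GENCODE annotation Mycl begins further upstream than in RefSeq, at chr4:122995652, and the bases before that start were not searched. The 250 bases before the RefSeq start of Mycl, the member whose RNA fell after induction, therefore lie inside its GENCODE span. They held none of the 3 motifs (chr4:122995681-122995930, plus strand, GRCm38.p6).
Mycl: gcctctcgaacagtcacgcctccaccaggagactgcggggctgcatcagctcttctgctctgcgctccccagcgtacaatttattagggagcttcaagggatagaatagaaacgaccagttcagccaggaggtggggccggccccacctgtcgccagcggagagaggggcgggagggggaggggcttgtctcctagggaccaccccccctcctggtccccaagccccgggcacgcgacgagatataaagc
A motif match is a description of these letters, and the data do not measure binding.

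Levels are first compared between genes per kilobase of annotated exon, since a longer transcript yields more counts. Before induction Mycn was the most abundant member, at 18.5 ± 1.74 CPM per kb (SD, n = 4), followed by Mga at 15.1 ± 0.44, Max at 9.25 ± 0.19, Mnt at 8.84 ± 0.90, Mycl at 5.65 ± 1.30, Mxi1 at 2.2 ± 0.38, Mxd3 at 1.57 ± 0.16, Myc at 0.591 ± 0.27, Mxd1 at 0.541 ± 0.10 and Mxd4 at 0.289 ± 0.04. At 0h the libraries' values overlapped between the neighbours Max and Mnt, Mxi1 and Mxd3, and Myc and Mxd1, and did not overlap between the other neighbours in this order. Myc was therefore among the 3 scarcest members at 0h. At 2h it had rank 5, at 9.40 ± 5.24 CPM per kb, with a range that overlapped those of Max above and Mycl below. At 4h it had rank 3, at 10.5 ± 3.95, with a range that overlapped those of Mga above and Mnt below. In rev it had rank 8, as at 0h, at 1.05 ± 0.52 CPM per kb. Divided by the longest transcript instead of all exons, Max at 0h stood above Mga (17.1 against 16.7 per kb) and Mxd1 above Myc. By that length Myc had rank 4 at both 2h and 4h. The order of these genes therefore depends on the length used.

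Myc (chr15:61985391-61990374, plus strand; ENSMUSG00000022346, GRCm38), the family's founding member, rose strongly after 4OHT and fell back with the MEK inhibitor. At 0h the 4 libraries held 4 to 22 counts, and the clone 4 pair read 1.6 and 1.97 CPM and the clone 8 pair 2.28 and 0.575 CPM. At 2h the clone 4 libraries read 13.2 and 13.3 CPM and the clone 8 libraries 39.3 and 36.4 CPM. At 4h the order of the clones was the opposite, with 37.6 and 37.8 CPM in clone 4 and 16.7 and 22.5 CPM in clone 8. In rev the values were 3.61 and 4.37 CPM in clone 4 and 2.12 and 1.28 CPM in clone 8. Every library at 2h and 4h lay above every library at 0h and rev, while 0h and rev overlapped.

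Across both clones, edgeR's quasi-likelihood test with Benjamini-Hochberg adjustment over all genes gave Myc a log2 change of 3.97 (SE 0.48, adjusted p = 2.52e-05) at 2h and of 4.08 (SE 0.49, adjusted p = 1.86e-05) at 4h against 0h. Myc fell by 3.20 (SE 0.43, adjusted p = 0.000108) from 4h to rev. Between rev and 0h the log2 change was 0.88 (SE 0.65, adjusted p = 0.419), and between 4h and 2h it was 0.11 (SE 0.34, adjusted p = 0.868). The last value averages opposite changes. In clone 4 alone Myc rose by 1.51 from 2h to 4h (SE 0.15, adjusted p = 6.86e-08), and in clone 8 alone it fell by 0.97 (SE 0.15, adjusted p = 0.000234). The difference between the clones, clone 8 minus clone 4, was -2.48 (SE 0.22, adjusted p = 1.48e-09), a contrast added after the values by clone had been seen. It was called with each of the 16 libraries left out in turn, at -2.69 to -2.27.

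The first 2 h also differed: the rise of Myc at 2h was larger in clone 8 by 1.73 (SE 0.50, adjusted p = 0.0282). Single libraries decide that call, since it was lost without 0h clone 4 number 1 (1.85, adjusted p = 0.0524), 0h clone 4 number 2 (1.57, 0.242), 0h clone 8 number 2 (1.18, 0.146), 2h clone 4 number 2 (1.73, 0.0575) and 2h clone 8 number 1 (1.69, 0.0512). Without 0h clone 8 number 1 the difference was 3.16. In clone 4 alone, Myc in rev stayed above 0h by 1.14 (SE 0.31, adjusted p = 0.0138), and in clone 8 alone the change was -0.03 (SE 0.53, adjusted p = 0.983); whether the clones differ there was not tested. The ERK readout Dusp6 also separated the clones at 4h, with 80.0 and 73.9 CPM in clone 4 against 22.8 and 19.3 CPM in clone 8, and its clone difference for 4h against 2h was -1.64 (SE 0.18, adjusted p = 7.24e-08). Of the 7 ERK readouts, 4 were called in that clone difference, all lower in clone 8, where 14.8% of all genes were called. Spry2 was not among them (-0.11, SE 0.18, adjusted p = 0.746). For 4h against 0h, 6 of the 7 readouts were called in the clone difference, all lower in clone 8, against 5.72% of all genes. There edgeR gave -2.60 for Dusp6 (SE 0.35, adjusted p = 4.86e-06). Myc was not called in that contrast (-0.76, SE 0.49, adjusted p = 0.49). At 2h Dusp6 read 33.5 and 35.4 CPM in clone 4 and 31.1 and 28.0 CPM in clone 8, so the higher Myc of clone 8 at 2h had no counterpart in a higher Dusp6. Spry2 was lower in clone 8 at 2h, at 26.8 and 27.1 CPM against 45.4 and 48.7 CPM in clone 4. Its clone difference for 2h against 0h was -0.70 (SE 0.22, adjusted p = 0.0479). The part of induction strength in the Myc result was not tested.

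**Figure D1:**
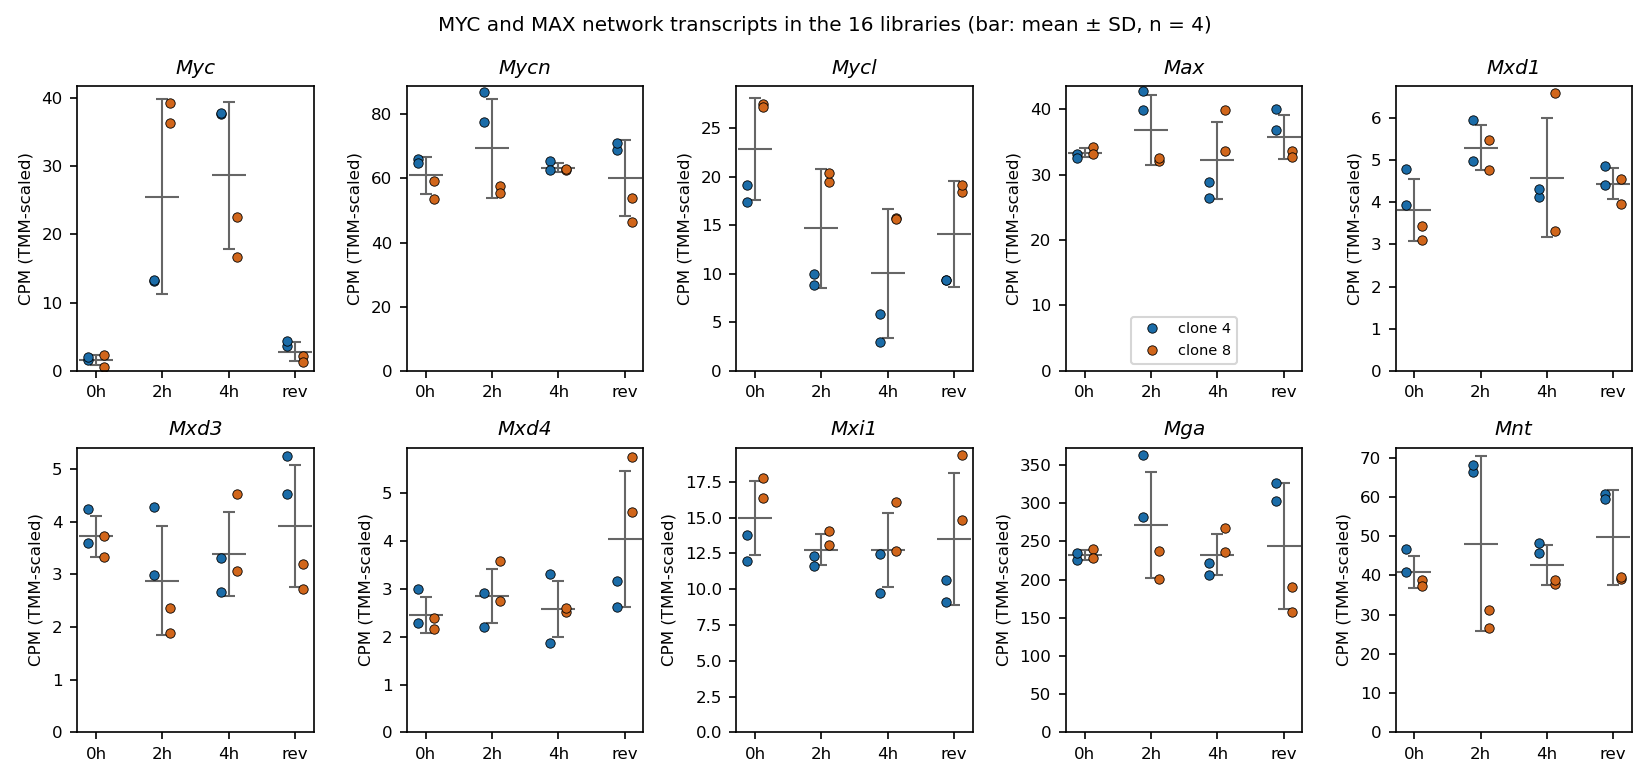
Expression of each of the 10 genes (y axis, TMM-scaled CPM, linear from 0, one scale per panel) in the 4 groups (x axis); blue points are clone 4, orange points clone 8, and the grey bar is the mean ± SD of 4 libraries. Myc is at 13.2 to 39.3 CPM at 2h and 16.7 to 37.8 CPM at 4h against at most 4.37 CPM at 0h and rev, with the clones in opposite order at 2h and 4h; Mycl lies lower in clone 4 than in clone 8 in every group.

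Pvt1 (chr15:62037986-62378096, plus strand; ENSMUSG00000097039) is a long noncoding RNA gene downstream of Myc in the same orientation. It stayed low, at 0.791 to 6.03 CPM in all libraries. Its log2 change was 0.41 (SE 0.28, adjusted p = 0.334) at 2h, then it rose by 1.32 at 4h against 0h (SE 0.27, adjusted p = 0.00347) and by 0.90 from 2h to 4h (SE 0.24, adjusted p = 0.0221), and fell by 1.31 in rev (SE 0.27, adjusted p = 0.00449). The rise of Pvt1 was thus called at 4h and not at 2h, whereas that of Myc was called at both. Of its exon length, 4.87% is shared with same-strand models and 1.56% with H2afy3 on the other strand.

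Mycl (chr4:122995652-123002485, plus strand, ENSMUSG00000028654), the member best known from lung tumours, moved opposite to Myc at 2h and at 4h against 0h. From 2h to 4h in clone 8 alone, where Myc fell, the log2 change of Mycl was -0.34 (SE 0.11, adjusted p = 0.0655). In clone 4 Mycl went from 19.2 and 17.4 CPM at 0h to 9.98 and 8.85 at 2h, 2.93 and 5.84 at 4h, and 9.37 and 9.31 in rev. In clone 8 it went from 27.5 and 27.2 CPM at 0h to 19.4 and 20.4 at 2h, 15.8 and 15.6 at 4h, and 18.5 and 19.2 in rev. Within each clone the 0h libraries were the highest and the 4h libraries the lowest, with no overlap between these groups, but clone 4 at 0h overlapped clone 8 at later times. Mycl fell by 0.68 (SE 0.17, adjusted p = 0.0116) at 2h and by 1.28 (SE 0.19, adjusted p = 0.000193) at 4h against 0h. It fell by 0.59 from 2h to 4h (SE 0.19, adjusted p = 0.0462), a call lost when any of 11 libraries was left out (adjusted p up to 0.127; -0.37 without 4h clone 4 number 1). From 4h to rev its log2 change was 0.55 (SE 0.20, adjusted p = 0.0824), and rev remained below 0h, by -0.73 (SE 0.18, adjusted p = 0.0148; 0.058 without 0h clone 4 number 1). With library totals the fall at 2h was not called (-0.61, adjusted p = 0.204), nor that from 2h to 4h (-0.76, adjusted p = 0.0878). The Mycl calls rest on the clone term in the model, because clone 8 held more Mycl overall (1.06, SE 0.13, adjusted p = 3.12e-06); with no such term none of them was called.

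The loss of Mycl at 4h was deeper in clone 4, at -2.20 (SE 0.25, adjusted p = 2.38e-07), than in clone 8, at -0.80 (SE 0.12, adjusted p = 0.000187). The difference was 1.39 (SE 0.27, adjusted p = 0.000775), and it was 0.84 (adjusted p = 0.206) without the 4h clone 4 library number 1, which held 22 counts of Mycl. Within clone 4 the return from 4h to rev was 1.23 (SE 0.26, adjusted p = 0.000822), and within clone 8 it was 0.27 (SE 0.13, adjusted p = 0.282).

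Mycn (chr12:12936093-12941914, minus strand; ENSMUSG00000037169), the paralog that dominates in these cells, ranged only from 46.4 to 86.7 CPM over the 16 libraries. Its log2 changes across both clones lay between -0.11 and 0.17 in the 5 comparisons, and none was called (lowest unadjusted p 0.102, edgeR's quasi-likelihood test; DESeq2 called none either). Its clone difference is given with those of the other members below. Set per kilobase against its paralogs, the makeup of the family shifted with Myc. Myc made up 0.851% to 3.51% of the 3 paralogs' sum at 0h, 14.5% to 39.4% at 2h, 21.1% to 40.6% at 4h and 2.44% to 6.32% in rev. Mycn made up 68.0% to 79.6% at 0h and 47.5% to 78.2% at 2h, and remained the largest of the 3 in every library. Mycl dropped from 17.5% to 28.5% at 0h to 2.11% to 13.4% at 4h. The sum of the 3 was 24.7 ± 0.61 CPM per kb at 0h, 34.1 ± 2.61 at 2h, 32.3 ± 2.58 at 4h and 22.7 ± 2.78 in rev (SD, n = 4). Every library at 2h and 4h lay above every library at 0h and rev in this sum (29.1 to 36.7 against 19.3 to 25.4).

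**Figure D2:**
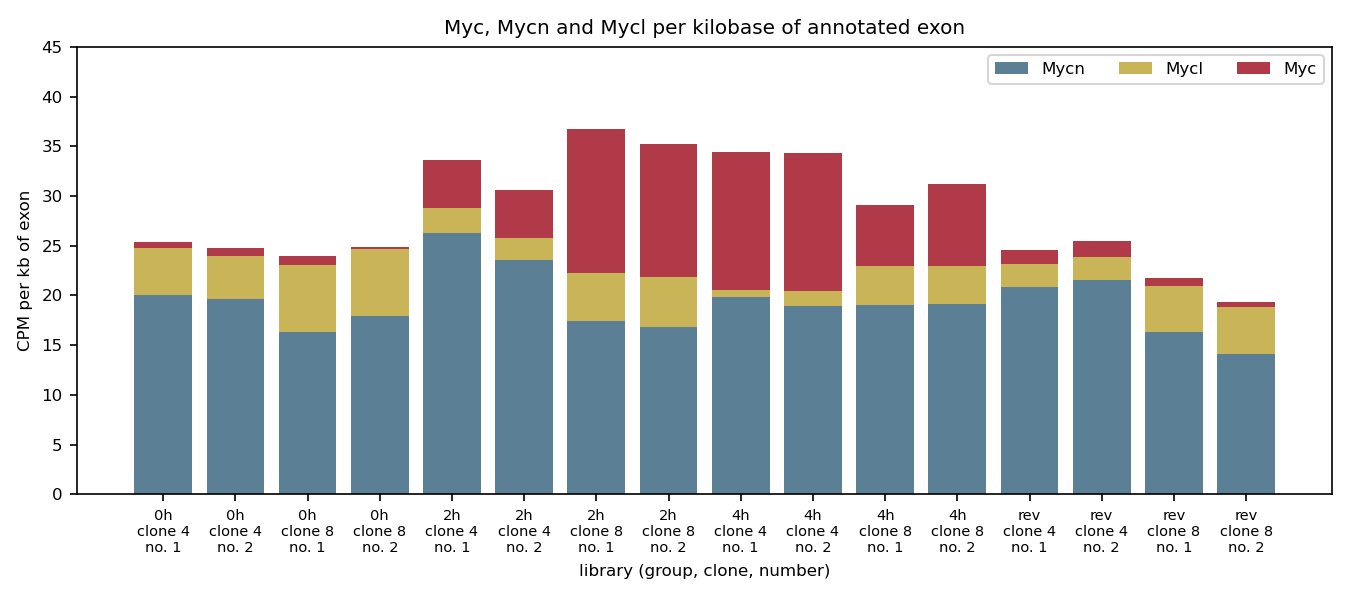
Stacked levels of Mycn, Mycl and Myc (y axis, CPM per kb of annotated exon) in each of the 16 libraries (x axis, group, clone and library number). The red Myc share is 14.5% to 40.6% of the bar at 2h and 4h and at most 6.32% at 0h and rev, and Mycn is the largest segment throughout.

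Read over the whole network, calls were few. At 2h against 0h, 2 of the 10 members were called (Myc higher, Mycl lower), where 17.0% of all tested genes were. At 4h against 0h the same 2 genes were called, against 12.9% of all genes. At 4h against 2h it was 1 member (Mycl, lower) against 12.1%, at rev against 4h 1 member (Myc, lower) against 9.61%, and at rev against 0h 1 member (Mycl, lower) against 10.5%. These shares are near the background, so the number called does not set the network apart. The members' median log2 change was 0.15 at 2h, 0.03 at 4h and 0.09 for rev against 4h, where the median of all genes was 0.00, -0.01 and 0.00.

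**Figure D3:**
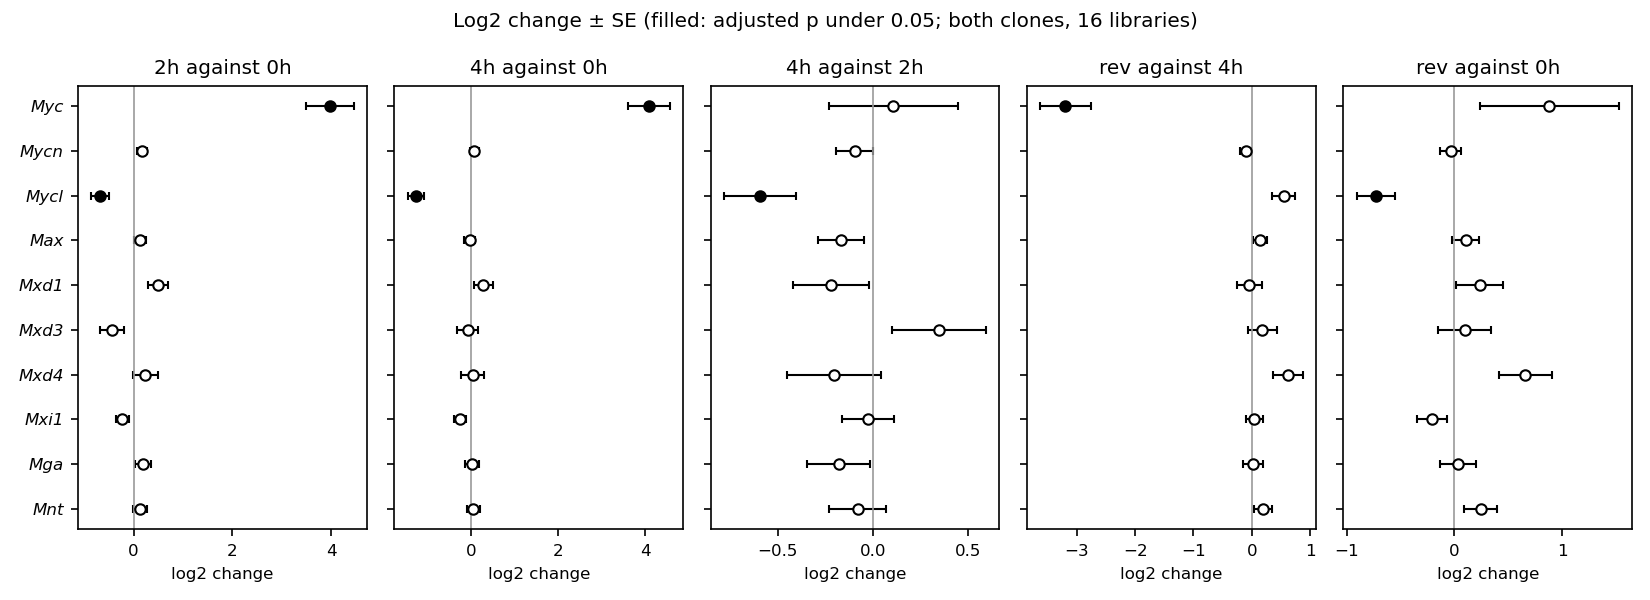
Log2 change with its SE (x axis) of each member (y axis) in the 5 comparisons between groups, from all 16 libraries; filled points have an adjusted p under 0.05, and each panel has its own x scale. Myc stands at 3.97 and 4.08 against 0h and at -3.20 for rev against 4h, Mycl is below 0 in 4 of the 5 panels, and the other 8 members lie between -0.43 and 0.66.

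Max (chr12:76937269-76962201, minus strand; ENSMUSG00000059436), the obligate partner of the whole network, ranged from 26.4 to 42.7 CPM, and its log2 changes across both clones lay between -0.17 and 0.14 with none called by edgeR or DESeq2 (lowest unadjusted p 0.176). In clone 4 alone edgeR gave Max a log2 change of -0.57 from 2h to 4h (SE 0.13, adjusted p = 0.00174). From 4h to rev it was 0.47 there (SE 0.13, adjusted p = 0.00747). Clone 8 alone gave no call for Max. The MXD genes encode the antagonists that rise in many cells as they stop dividing. Mxd1 (chr6:86647042-86669161, minus strand) read 3.11 to 6.59 CPM, and its log2 change at 2h was 0.50 (SE 0.20, adjusted p = 0.0998). Mxd3 (chr13:55325168-55329823, minus strand), the MXD gene usually seen in dividing cells, read 1.89 to 5.24 CPM. Mxd4 (chr5:34173883-34187720, minus strand) read 1.87 to 5.75 CPM, and its largest log2 change was 0.66 in rev against 0h (SE 0.25, adjusted p = 0.0962). Mxi1 (chr19:53310518-53375810, plus strand) was the most abundant of the 4, at 9.12 to 19.4 CPM. None of these 4 genes was called in any of the 5 comparisons over both clones by edgeR's quasi-likelihood test or by DESeq2. In clone 8 alone Mxd3 rose by 0.89 from 2h to 4h (adjusted p = 0.0444) and Mxd4 was higher in rev than at 0h by 1.12 (adjusted p = 0.0226), and clone 4 fitted by itself gave no call for these genes. Unadjusted p-values under 0.05 were those of Mxd1 at 2h (0.024) and of Mxd4 in rev against 0h (0.0155) and against 4h (0.0214). Mxd1, Mxd3 and Mxd4 had as few as 9 to 15 counts in their lowest libraries, so small changes were not detectable at this depth. Exons of Mxd3, Mxd4 and Mxi1 overlap an opposite-strand gene over 4.43%, 6.06% and 2.84% of their length, and the strand setting of the counting is not given in the sources used here.

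Mnt (chr11:74830920-74845725, plus strand; ENSMUSG00000000282) encodes the broadly expressed repressor that pairs with MAX in most cells. In clone 4 it read 46.7 and 40.8 CPM at 0h, 66.4 and 68.3 at 2h, 45.7 and 48.3 at 4h, and 60.9 and 59.6 in rev. In clone 8 it read 38.8 and 37.2 CPM at 0h, 31.2 and 26.6 at 2h, 37.8 and 38.7 at 4h, and 39.1 and 39.5 in rev. At 2h the clones moved apart, up in clone 4 and down in clone 8, and at 4h each was near its 0h level. In clone 4 alone Mnt rose by 0.62 at 2h (SE 0.12, adjusted p = 0.000398), and in clone 8 alone it fell by 0.40 (SE 0.10, adjusted p = 0.00917). The clone difference was -1.03 (SE 0.15, adjusted p = 4.30e-05) and was called with each library left out. Scaled by library totals in place of TMM it was -0.44 (adjusted p = 0.417), under a shift of 0.56 in the median of all genes.

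Mga (chr2:119897228-119969581, plus strand; ENSMUSG00000033943) encodes the large scaffold of PRC1.6 that also binds MAX. In clone 4 it read 225.1 and 234.9 CPM at 0h, 282.7 and 362.8 at 2h, 205.7 and 221.2 at 4h, and 302.6 and 326.5 in rev. In clone 8 it read 240.2 and 227.9 CPM at 0h, 201.3 and 238.1 at 2h, 236.2 and 267.9 at 4h, and 190.4 and 158.0 in rev. In rev the clones did not overlap, with clone 4 high and clone 8 low. From 4h to rev Mga rose by 0.57 in clone 4 (SE 0.12, adjusted p = 0.000552) and fell by 0.54 in clone 8 (SE 0.11, adjusted p = 0.00396), and the difference was -1.10 (SE 0.17, adjusted p = 2.42e-05), called with each library left out. At 2h the clone difference was -0.58 (SE 0.17, adjusted p = 0.0244). That call was lost without any 1 of 6 libraries, which were the 4 at 0h, 2h clone 4 number 2 (-0.39, adjusted p = 0.201) and 2h clone 8 number 1 (-0.44, 0.171), and with library totals the value was 0.0053.

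The clones were compared by the difference in their changes. At 2h against 0h, 3 of 10 members differed in their change (Myc, Mnt and Mga), where 7.94% of all genes did. At 4h against 0h it was 1 member (Mycl) against 5.72%. At 4h against 2h, the contrast added after the values had been seen, it was 6 members against 14.8%: Myc lower in clone 8, and Mnt (0.93, SE 0.15), Mycl (0.90, SE 0.28), Mga (0.79, SE 0.17), Max (0.74, SE 0.16) and Mycn (0.51, SE 0.14) higher. At rev against 4h it was 4 members against 13.2%, all lower in clone 8: Mga, Mycl (-0.96, SE 0.28), Max (-0.60, SE 0.17) and Mycn (-0.47, SE 0.15). With library totals only Myc of the 6 members was called at 4h against 2h, and the median of all genes shifted by -0.24 there and by -0.67 at rev against 4h. Over all groups, clone 8 held more Mycl and Mxi1 (0.43, SE 0.10) and less Mnt (-0.60, SE 0.11) and Mycn (-0.32, SE 0.07), so 4 of 10 members differed in level, against 34.9% of all genes. With library totals the Mycn difference in level was -0.24 (adjusted p = 0.403).

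The test and single libraries bear on several of these calls. DESeq2 did not call Mycl at 4h against 2h (0.87, adjusted p = 0.096), nor Mycl (-0.93, 0.0788), Max (-0.59, 0.0667) or Mycn (-0.45, 0.0908) at rev against 4h. With no filter on low counts Mycl at 4h against 2h was also lost (0.89, adjusted p = 0.056). For Mycl the difference at 4h against 2h was lost without 4h clone 4 number 1 (0.35, adjusted p = 0.593), 2h clone 4 number 1 (0.81, 0.0781), 2h clone 8 number 1 (0.86, 0.0639) or 4h clone 8 number 1 (0.88, 0.0646). At rev against 4h the Mycl difference was lost without 4h clone 4 number 1 (-0.41, adjusted p = 0.543), 4h clone 8 number 1 (-0.95, 0.054), rev clone 4 number 2 (-0.97, 0.0575) or rev clone 8 number 2 (-0.996, 0.0508). For Mycn the difference at 4h against 2h was lost without 2h clone 4 number 1 (0.43, adjusted p = 0.0516) or 2h clone 8 number 2 (0.47, 0.0689), and that at rev against 4h was lost in 8 of 16 such fits, at -0.35 without rev clone 8 number 2 (adjusted p = 0.226). For Max the difference at rev against 4h was lost without 4h clone 4 number 2 (-0.55, adjusted p = 0.0506), 4h clone 8 number 2 (-0.49, 0.0861), rev clone 4 number 1 (-0.54, 0.06) or rev clone 8 number 2 (-0.57, 0.0754).

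Of the 8 members other than Myc and Mycl, 4 shared a pattern in clone 4. There the 2h and rev libraries lay above the 0h and 4h libraries with no overlap for Mycn (68.8 to 86.7 against 62.5 to 66.1 CPM), Max (36.8 to 42.7 against 26.4 to 33.2), Mga (282.7 to 362.8 against 205.7 to 234.9) and Mnt (59.6 to 68.3 against 40.8 to 48.3). The 4 MXD genes overlapped there. In clone 8 the same 2 sets of libraries overlapped for Mycn, Max, Mga and Mnt. Mxd4 lay above in clone 8, at 2.73 to 5.75 against 2.16 to 2.60 CPM. How many of all tested genes split in this way was not counted, so the split cannot be called particular to these members. The same division of libraries appeared over all genes: the third principal component, with 8.57% of the variance, was positive at 0h and 4h (3.56 to 11) and negative at 2h and rev (-12.1 to -3.27) in both clones. The share of counts on the 8 large features also differed at 2h, at 64.9% and 61.1% in clone 4 against 52.1% and 46.7% in clone 8. The part of either in these results was not tested.

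**Figure D4:**
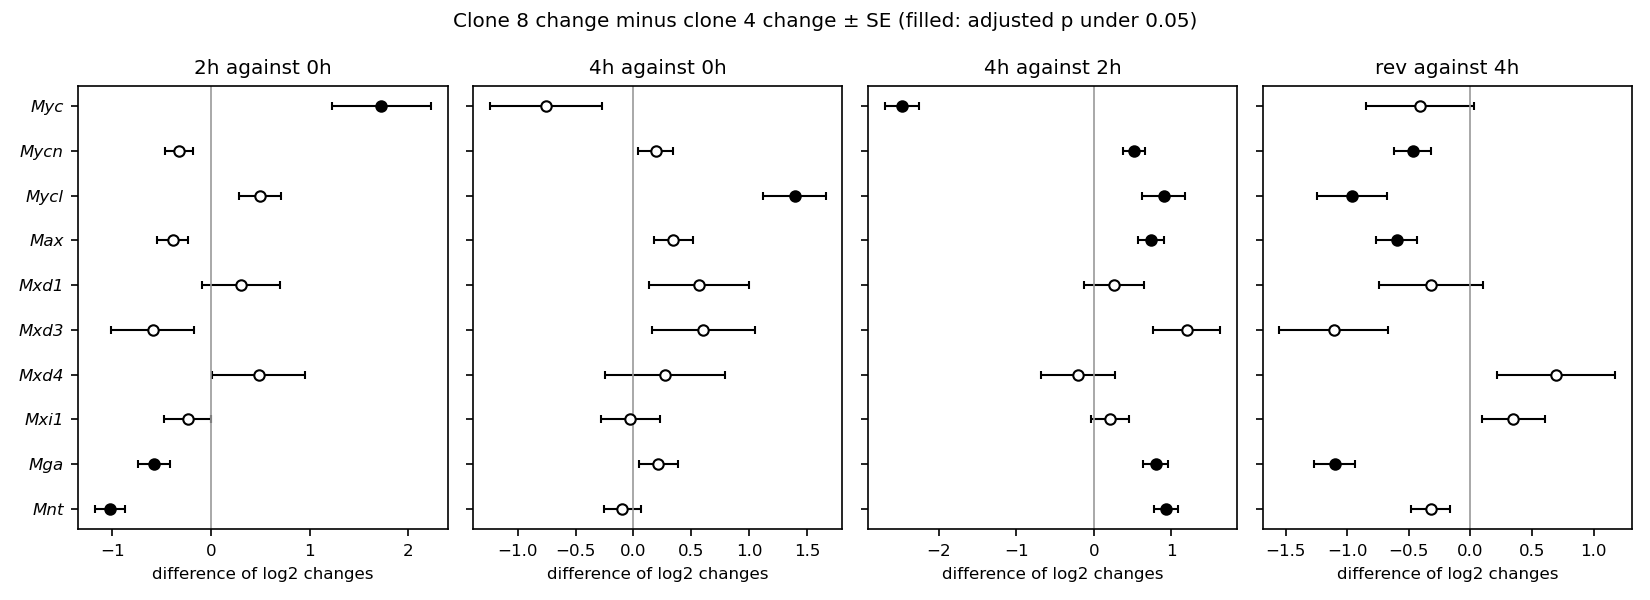
Difference between the clones' log2 changes, clone 8 minus clone 4, with its SE (x axis) for each member (y axis) in 4 comparisons; filled points have an adjusted p under 0.05, and each panel has its own x scale. For 4h against 2h Myc lies at -2.48 and 5 other members are filled on the positive side, between 0.51 and 0.93.

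The partners of the network were read from lists drawn up by known function. Of 27 genes that MYC is known to activate, 4 rose and none fell at 2h, and 11 rose and none fell at 4h, with list medians of 0.07 and 0.27 against 0.00 and -0.01 for all genes. Over all genes 17.0% were called at 2h and 12.9% at 4h in either direction, so the count at 2h is near the background. Called at 2h were Nop58 (0.45, SE 0.09), a ribosomal RNA processing protein, Eif4e (0.41, SE 0.08), the cap-binding translation factor, Ppan (0.30, SE 0.09), a ribosome assembly factor, and nucleolin, Ncl (0.27, SE 0.07). At 4h the largest changes were in Ccnd2, Rcl1 (0.59, SE 0.10), an rRNA processing protein, and Odc1 (0.52, SE 0.12), the first enzyme of polyamine synthesis. Ccnd2, a D-type cyclin, had at most 2 counts in any 0h library, so no fold is given; it averaged 16.8 ± 17.4 CPM at 4h (SD, n = 4; adjusted p = 0.00021), with 31.9 in clone 4 and 1.82 in clone 8. From 4h to rev 3 of the 27 fell (Ccnd2, Srm and Rcl1), where 9.61% of all genes were called in either direction, so this count is near the background. In rev 5 of the 27 were higher than at 0h, against 10.5% of all genes called. Nop58 (0.43, SE 0.09) and Ppan (0.42, SE 0.09) had also been called at 2h and 4h, and Apex1 (0.38, SE 0.12), a DNA repair enzyme, had been called at neither. Within single clones 8 of 27 rose at 4h in each, with 1 lower in clone 4. Over all genes 2423 of 12759 were called there in clone 4 alone and 806 of 12831 in clone 8 alone, in either direction. The count of 11 depends on the scaling and on single libraries: with library totals 1 of 27 was higher at 4h (list median 0.22), and it was 7 without 4h clone 4 number 1 (list median 0.26). Calls over all genes fell too, from 1645 of 12742 to 508 with library totals and to 995 of 13012 without that library. The list was drawn up with earlier results of these data known, so its direction is a description.

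**Figure D5:**
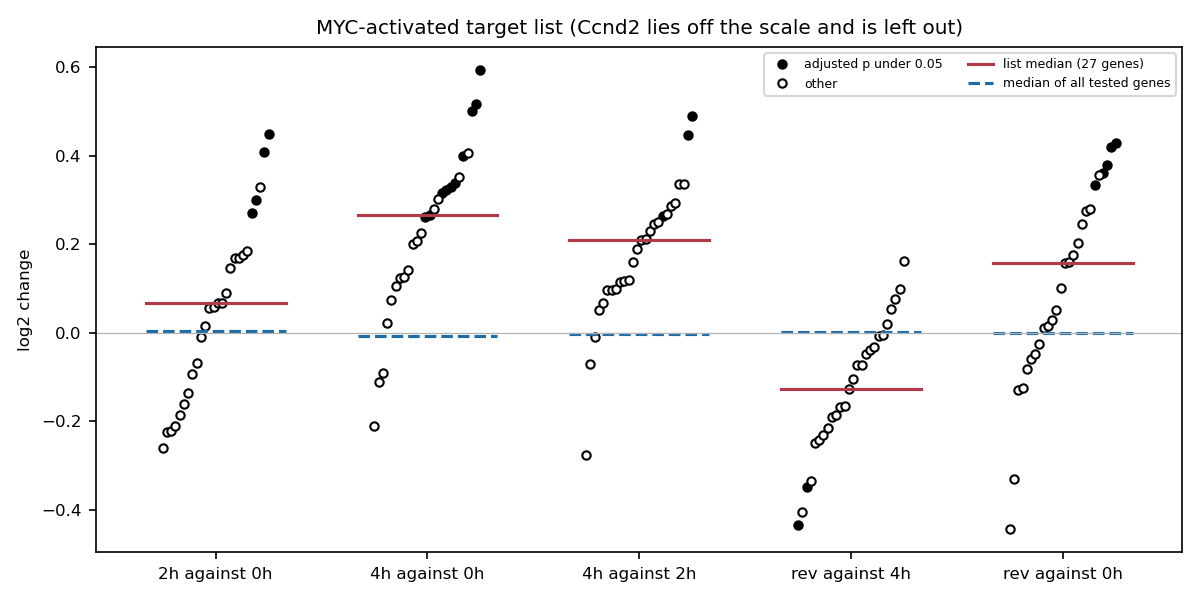
Log2 changes (y axis) of 26 MYC-activated genes in the 5 comparisons (x axis); each point is a gene, filled where the adjusted p is under 0.05, and Ccnd2 is off the scale. The red line is the median of the 27 genes and the dashed blue line that of all tested genes; the list median is highest for 4h against 0h (0.27) and below 0 for rev against 4h (-0.13).

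Of 5 genes that MYC is known to repress, Cdkn1b, which encodes the cell cycle inhibitor p27, fell at 2h (-0.60, SE 0.15) and 4h (-0.89, SE 0.15) and was still lower in rev (-0.60, SE 0.15). Cdkn1a, which encodes the inhibitor p21, rose at 2h (0.72, SE 0.16), fell from 2h to 4h (-1.25, SE 0.17) and rose from 4h to rev (1.39, SE 0.17). The stress gene Gadd45a rose at 2h (0.77, SE 0.22) and 4h (0.86, SE 0.22). In all, 2 of the 5 were higher and 1 lower at 2h, and 1 higher and 1 lower at 4h, so the list did not move one way. Over all genes 17.0% and 12.9% were called in these comparisons, and 5 genes are too few to set against that share.

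Among 10 genes that control MYC protein stability, 4 were higher and 1 lower at 2h, where 17.0% of all genes were called. Fbxw7 (0.54, SE 0.11), the ubiquitin ligase subunit that marks MYC for destruction, and Gsk3b (0.39, SE 0.08), the kinase that primes that step, rose together with the ligase Huwe1 (0.37, SE 0.10). Gsk3b fell from 2h to 4h (-0.51, SE 0.08) and rose in rev (0.48, SE 0.09), so it was high in the libraries on the negative side of the third component. At 4h, against 12.9% of all genes, 3 were higher, Ppp2r5a (0.63, SE 0.15), a phosphatase subunit, Skp2 (0.49, SE 0.13), a ubiquitin ligase subunit, and Usp36 (0.39, SE 0.11), a deubiquitinase. Usp28, a deubiquitinase that opposes FBXW7, was lower at 2h (-0.27, SE 0.08) and in rev against 4h (-0.65, SE 0.08). MYC protein was not measured.

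The remaining lists held few called genes, and the shares called over all genes were 17.0% at 2h, 12.9% at 4h, 12.1% for 4h against 2h, 9.61% for rev against 4h and 10.5% for rev against 0h. Of 12 MYC coactivators, 1 rose at 2h, the chromatin remodeller Ep400 (0.30, SE 0.08), and 1 at 4h, the helicase Ruvbl1 (0.45, SE 0.11), which fell in rev (-0.61, SE 0.11). Of 8 SIN3 and NCOR corepressor genes, 1 was lower at 2h, the SIN3 subunit Suds3 (-0.35, SE 0.10), and the same gene was higher at 4h than at 2h (0.32, SE 0.10). Of the 3 MLX-branch genes, whose products pair with MLX and not MAX, Mlxip alone was called, higher at 4h (0.35, SE 0.10) and lower from 4h to rev (-0.38, SE 0.10). Among 12 subunits of the MGA-containing complex PRC1.6, Rnf2 (0.43, SE 0.09), its ubiquitin ligase, and Rybp (0.53, SE 0.11) rose at 2h, and Rnf2 (0.42, SE 0.10) and the E2F-family repressor E2f6 (0.91, SE 0.17) rose at 4h. Of 14 germline genes that PRC1.6 keeps silent, 10 passed the filter on low counts. Dazl, a germ cell RNA-binding protein, rose at 2h (1.05, SE 0.17) and 4h (0.89, SE 0.18) and was still higher in rev (1.13, SE 0.17), and Stra8, a meiosis gene, rose at 2h (0.67, SE 0.20), fell from 2h to 4h (-1.13, SE 0.21) and rose in rev (0.94, SE 0.22).

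By correlation of log2 CPM over the 16 libraries with each clone's mean removed, among 6502 genes of at least 10 CPM, the profile most like that of Myc was that of Cdc42ep4 (Pearson r 0.931), followed by Trim25 (0.930), Hs3st3b1 (0.925), Enc1 (0.916) and Tex10 (0.915). Their changes were of unequal size: Hs3st3b1, a heparan sulfate sulfotransferase, had log2 changes of 2.79 at 2h and 3.54 at 4h, Cdc42ep4, an effector of the GTPase CDC42, of 1.27 and 1.53, and Trim25, a ubiquitin ligase, of 0.29 and 0.35. The profiles most like that of Mycn were those of Fut9 (0.834), Med19 (0.83), Fubp1 (0.826), Qser1 (0.826) and Rsbn1 (0.823). The libraries share groups and depth, so these values describe likeness only.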

How the data were processed

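Per the labels' protocols, ribosomal RNA was removed from 1 µg of RNA per sample and libraries were made with NEBNext Ultra II. The deposited values are raw whole-number counts per gene, 1 column per library. The submitters' processing notes name mm10, bcl2fastq 2.19.1 and STAR 2.5.3a; the counting program, annotation and strand setting are not given in the sources used here. Symbols and coordinates came from GENCODE M21 (GRCm38) by gene ID; 52489 IDs matched and 147 did not.

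Low genes were removed by filterByExpr (groups as design, minimum count 10, total 15). Counts were tested with edgeR 4.0.16 (R 4.3.3), quasi-likelihood F test with TMM scaling, groups from the sample titles plus clone over all 16 libraries, Benjamini-Hochberg adjustment over 12742 genes and calls at an adjusted p under 0.05. A second model of the 8 group and clone combinations gave clone differences, and each clone was also fitted alone. On simulated data for 2h against 0h, 199 of 200 genes changed by 1.5 on the log2 scale were called, and 170 of 200 for the clone difference. False calls numbered 13 and 10. The changed genes were drawn only from those above a minimum mean count. These rates therefore do not cover genes with few counts, such as Mxd1, Mxd3 and Mxd4. Replicates differed beyond sampling noise in every pair (lowest chi-square per degree of freedom 4.49, highest 74.3) and none was merged. The floor of 3 counts and all CPM cover counting error only.

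The set of members, found in the table by symbol, and the lists were proposed with earlier results of these data known. The text names the 10 members, Pvt1, Dusp6 and Spry2, up to 3 called genes per list and comparison with the largest change, Ncl and Usp28 at 2h besides, chosen after their values were seen, and the 5 genes most like Myc and Mycn. Alternatives were other scaling (RLE, library totals), no filter, DESeq2 1.42.0, a threshold of 0.01, no clone term, single clones, a replicate block, removal of features above 1% of counts and each library left out.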

Additional observations from a re-analysis of the deposited data

Results flagged for a closer look

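The changes of the members were compared between the clones in 40 tests (10 genes in 4 comparisons), and 14 differed at an adjusted p under 0.05 (edgeR's quasi-likelihood test, clone 8 change minus clone 4 change). Over all genes 7.94%, 5.72%, 14.8% and 13.2% differed in the 4 comparisons, in the order given here. For 2h against 0h the values were 1.73 for Myc, -1.03 for Mnt and -0.58 for Mga. For 4h against 0h the value was 1.39 for Mycl. For 4h against 2h, the contrast added after the values had been seen, they were -2.48 for Myc, 0.93 for Mnt, 0.90 for Mycl, 0.79 for Mga, 0.74 for Max and 0.51 for Mycn. For rev against 4h the values were -1.10 for Mga, -0.96 for Mycl, -0.60 for Max and -0.47 for Mycn.

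In 40 groups of 4 libraries (10 genes in 4 groups), 1 held a library far from the other 3 by Dixon's test, a test that chance alone passes in about 1 of 20 groups. It was Mycn at 4h, where clone 4 number 1 read 65.3 CPM; the gap to the next library took up 0.837 of the group's range.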

How the results depend on the processing

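Myc kept its calls at 2h and 4h against 0h and from 4h to rev under every alternative run, at 3.67 to 4.25, 3.80 to 4.38 and -3.54 to -2.90 with 1 library left out. In clone 4 alone Myc changed by 1.51 at 4h against 2h and by 1.14 at rev against 0h, both called, and by 0.89 at rev against 0h with no filter on low counts, also called. In clone 8 alone Myc was -0.97 at 4h against 2h, Mnt -0.40 at 2h against 0h and 0.41 at 4h against 2h, and Mga -0.54 at rev against 4h and -0.44 at rev against 0h, each opposite in sign to the value over both clones. With library totals the Mga clone difference at 2h was 0.0053, also opposite in sign. Signs that changed where neither value was called were not counted. Library totals shifted the median of all genes by 0.11 at 2h and -0.04 at 4h relative to 0h, by -0.14 between 2h and 4h, and in rev by -0.20 relative to 4h and -0.24 relative to 0h.

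Numbers of members called moved as follows. At 2h against 0h (2 called) there was 1 with library totals, with a threshold of 0.01 or with no clone term, and 5 in clone 4 alone. Calls over all genes there numbered 2162 of 12742, with 446 for library totals, 921 at 0.01, 757 with no clone term and 2640 of 12759 in clone 4. At 4h against 0h (2 called) there was 1 with no clone term, where all genes called went from 1645 to 546. At 4h against 2h (1 called) there were 0 with library totals, a threshold of 0.01 or no clone term, 6 in clone 4 alone, 3 in clone 8 alone, and 0 to 1 with 1 library left out. Among all genes 1547 were called there, against 385 with library totals, 457 at 0.01 and 266 with no clone term. Clone 4 alone gave 3462 of 12759 and clone 8 alone 1238 of 12831. At rev against 4h (1 called) there were 2 with no filter, 5 in clone 4 alone, 2 in clone 8 alone, and 1 to 2 with 1 library left out. Here 1224 of all genes were called, against 1712 of 31994 with no filter, 3142 in clone 4 alone and 824 in clone 8 alone. At rev against 0h (1 called) there were 2 with no filter, 0 with a threshold of 0.01 or no clone term, 4 in clone 4 alone, 3 in clone 8 alone, and 0 to 1 with 1 library left out. All genes called went from 1332 to 1488 of 31994 with no filter, 450 at 0.01 and 273 with no clone term. They were 2140 in clone 4 alone and 1270 in clone 8 alone. Of clone differences, at 2h against 0h (3 called) there was 1 with library totals or a threshold of 0.01, and 1 to 3 with 1 library left out; at 4h against 0h (1 called) 0 to 1; at 4h against 2h (6 called) 1 with library totals, with Mycl also lost by DESeq2, with no filter and at 0.01, and Mycn at 0.01; and at rev against 4h (4 called) 1 (Mga) with DESeq2 or a threshold of 0.01 and 1 to 4 with 1 library left out. Clone differences over all genes at 2h against 0h numbered 1012, with 476 for library totals and 416 at 0.01. For 4h against 2h they numbered 1891, with 511 for library totals, 1112 by DESeq2, 1805 of 31994 with no filter and 1017 at 0.01. For rev against 4h they numbered 1681, with 999 by DESeq2 and 852 at 0.01. The cause of these moves was not tested, except that leaving out a library or fitting 1 clone means fewer samples.

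The replicate block left 0 members called at 4h against 2h, in place of 1, where Mycl was at -0.60 (adjusted p = 0.0749), and changed no other member's call. The numbers did not pair libraries: with group and clone means removed, same-numbered libraries of a clone correlated at -0.011 on average (24 pairs, -0.133 to 0.119).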
